A study of Homo sapiens with 42 samples.

Results

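MOLM-13 and MOLM-14 are sister lines, both grown from the blood of the same patient with acute myeloid leukaemia, and this account sets their responses to decitabine against each other. Of the 42 libraries in the series, 12 were used, 3 for each of 4 groups: MOLM-13 with decitabine, MOLM-13 with DMSO, MOLM-14 with decitabine and MOLM-14 with DMSO. Decitabine was given on days 0, 1 and 2 at a dose of 100 nM, control wells received the DMSO vehicle, and RNA was taken at 72 hours. The labels give both lines as wild type and name no other agent. The samples of the 2 lines are numbered in separate ranges of the series. Line therefore cannot be told apart from any difference in how the 2 sets were handled. Total RNA was sequenced on both lines, and all 60240 genes of the table entered, of which 18349 passed a filter of a normalised value of at least 10 in at least 3 of the 12 libraries. For each gene the response of a line is the mean log2(value + 1) with decitabine minus that with DMSO. The response difference is the response of MOLM-13 minus the response of MOLM-14, so a positive one means that the gene stood higher with decitabine, relative to DMSO, in MOLM-13 than in MOLM-14. Wells were seeded in duplicate or triplicate per the labels, which name no separate cultures, so p-values measure the spread between these samples, which may be technical.

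Decitabine is a cytidine analogue that is built into DNA, where it traps DNA methyltransferases, so that methylation is lost as cells divide. The lines carry a KMT2A fusion and an internal tandem duplication of FLT3, a receptor tyrosine kinase of blood progenitors, and have monocytic features. Among the genes that differed most, many belong to the integrated stress response, in which kinases that sense amino acid shortage, misfolded protein or other stress phosphorylate the initiation factor eIF2. General translation then falls while translation of the transcription factor ATF4 rises, and ATF4 with partners of the C/EBP family switches on genes for amino acid synthesis, amino acid uptake and charging of tRNA.

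The lines differed in depth as well as in name. The MOLM-13 libraries held an estimated 42900000 to 75000000 reads and the MOLM-14 libraries 1970000 to 17300000. Replicate 2 of MOLM-14 was the shallowest in both arms, with 1970000 reads with decitabine and 2020000 with DMSO, where 1 read was worth 10.3 and 10.1 units of normalised value. Among genes with a mean value of at least 100, the median SD between replicates on the log2 scale was 0.0981 in MOLM-13 and 0.250 in MOLM-14. Depth, spread and line cannot be told apart in this design. With DMSO the lines resembled each other more than any other pair of the 5 lines in the table (Pearson's r = 0.828 between mean log2 values over 11183 genes, a description across genes), and r was 0.782 for the next pair, MOLM-14 and OCI-AML3. HOXA9, MEIS1 and PBX3, progenitor genes that KMT2A fusions keep on, were above 1100 in all 12 libraries. FLT3 lay at 7673 to 8066 with decitabine and 10858 to 11083 with DMSO in MOLM-13, and at 5229 to 5964 with decitabine and 6447 to 6712 with DMSO in MOLM-14. CD14 reached at most 1.62, the erythroid factor GATA1 1.41, the T cell gene CD3E 3.24 and the epithelial gene EPCAM 3.17.

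The responses of the lines differed at 258 genes by limma's moderated test with Benjamini-Hochberg adjustment over the 18349 genes (adjusted p under 0.05). The response was higher in MOLM-13 at 128 genes (0.698% of those tested) and lower at 130 (0.708%), and 2619 genes had an unadjusted p under 0.05. In simulated data this test made more false calls than its threshold allows. Fits that leave out libraries are given below. They reuse the same libraries and a shared spread, so a call that holds in them may still be false. The absolute response was the larger in MOLM-14 at 97 of the 128 genes and at 107 of the 130. The same share was not counted over all genes tested, so these counts are not a result particular to the called genes. The split that follows rests on calls with 1 spread shared by both lines, though replicates of MOLM-14 varied more. Here and below, a change in 1 line alone is one that passed there and not in the other, which does not show it absent. Of the 128 genes, 76 fell in MOLM-14 alone, 21 rose in MOLM-13 alone, 18 fell in both lines, 8 rose in MOLM-13 and fell in MOLM-14, 2 rose in both and 3 passed in neither line. Of the 130 genes, 94 rose in MOLM-14 alone, 15 fell in MOLM-13 alone, 12 rose in both, 7 fell in MOLM-13 and rose in MOLM-14, 1 fell in both and 1 passed in neither. The DMSO levels of the lines were more than 2-fold apart at 69 of the 258 genes (26.7%), against 34.4% of all genes tested. With decitabine the gap between the lines was wider than with DMSO at 151 of the 258 genes and narrower at 107. This split was likewise not counted over all genes tested and cannot be read as particular to the 258.

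The number of calls moved with the libraries. Leaving out any 1 of the 6 MOLM-13 libraries gave 55 to 78 genes higher and 23 to 47 lower. Without replicate 1 of MOLM-14, 80 were lower both when the decitabine library and when the DMSO library was left out, and without replicate 2 of MOLM-14 with decitabine 196 were higher and 211 lower. Without both shallow MOLM-14 libraries 473 were higher and 532 lower. Each of the 84 named genes with a called difference was fitted in up to 22 other settings. Of the 84, 26 kept their call in all of them and 0 turned direction. They were picked by their call in these same libraries, so an unchanged direction was nearly fixed beforehand and lends them no support. With 1 spread estimated over the 30 libraries of 5 lines, the calls of NDUFA4L2 (adjusted p = 0.0565 by limma), NANOS1 (0.127), POLD1 (0.106) and IDH1 (0.0523) were lost. So were those of H2AC6 (0.171), CCND3 (0.0796), ATF3 (0.368), VLDLR (0.623), VEGFA (0.206), RBBP8 (0.13) and KIF20A (0.0663), besides those given with their genes.

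Within each line, 315 genes rose (1.72%) and 398 fell (2.17%) in MOLM-13, and 1153 rose (6.28%) and 1000 fell (5.45%) in MOLM-14. These counts use 1 spread shared by both lines, and the counts per line given for each gene list share that limit. Fitted within each line alone the order turned round, to 2504 and 2322 in MOLM-13 and 151 and 150 in MOLM-14, so neither line can be called the stronger responder from them. The split between genes that rose and fell also moved with the scaling: in MOLM-13 it was 214 and 118 after quantile normalisation, 357 and 198 after scaling without mitochondrial genes and 381 and 221 after trimmed-mean scaling, and in MOLM-14 it was 1342 and 788 after scaling without mitochondrial genes. Over the 10623 genes with a mean value of at least 100, the SD of the response was 0.368 in MOLM-13 and 0.535 in MOLM-14. The responses of the lines had r = 0.344 across these genes and r = 0.201 across all genes tested, given as a description, since genes are not independent replicates. Both lines passed at 339 genes, of which 324 moved in the same direction, 134 up and 190 down.

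**Figure D1:**
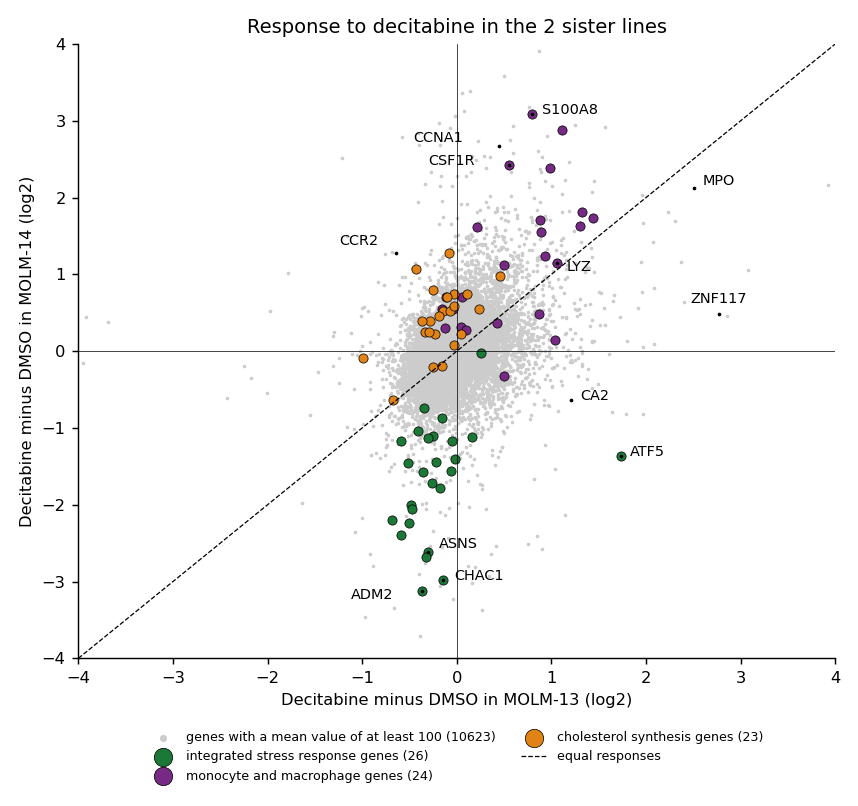
Response to decitabine of each gene with a mean value of at least 100 (log2, decitabine minus DMSO), MOLM-13 on the x axis and MOLM-14 on the y axis, with 3 gene groups coloured, labels on 12 genes and 6 genes beyond the axis limit of 4 not shown. The integrated stress response genes lie below the dashed line of equal responses, most cholesterol synthesis genes and most monocyte genes above it, and ATF5 and CA2 lie where MOLM-13 is up and MOLM-14 down.

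Integrated stress response genes fell in MOLM-14 with 1 exception, and their median fall was smaller in MOLM-13. Of 26 genes on the list, all tested, the response was higher in MOLM-13 at 22 and lower at 0, against 0.698% and 0.708% of all genes, and the median response difference was 1.42 on the log2 scale, against 0.0047 over all genes. In MOLM-14, 25 of the 26 fell and 0 rose (median response -1.51). In MOLM-13, 7 fell and 1 rose (median -0.31), and 23 of the 26 had a response under 0. Over all genes tested 2.17% fell in MOLM-13 and 5.45% in MOLM-14. The list held 16 to 24 genes higher in MOLM-13 and 0 lower when each library was left out in turn, 24 without both shallow MOLM-14 libraries, and 25 genes fell in MOLM-14 each time a library was left out. Fitted within each line alone, 16 fell and 2 rose in MOLM-13, and 21 fell and 0 rose in MOLM-14.

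The lines were close before treatment. The list's genes took 0.446% to 0.472% of all normalised value with DMSO in MOLM-13 and 0.523% to 0.565% in MOLM-14. With decitabine they took 0.364% to 0.366% in MOLM-13 and 0.214% to 0.223% in MOLM-14. With decitabine 24 of the 26 genes were higher in MOLM-13 than in MOLM-14, by a median of 1.30 on the log2 scale, and with DMSO 17 of 26 were, by a median of 0.20.

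Several of these genes carry the recognition sequence of ATF4 and its C/EBP partners near their start. The letters TGATGNAA, the core of that element, were searched on both strands in the RefSeq windows of 250 bases before to 50 after each gene's start (GRCh38.p14), a search made after the values were seen. They were found at 15 of the 82 matched genes with a higher response in MOLM-13 (18.3%), at 3 of the 95 matched genes with a lower response (3.16%) and at 323 of the 11157 matched genes tested (2.9%). On the stress response list they were found at 5 of 22 matched genes (22.7%). A match is a description of these letters and not of binding. Windows are shown, so that the letters can be read in place, for 8 of the 15 genes with a higher response that hold the match. All 8 fell in MOLM-14 and are genes of the stress response, amino acid use or tRNA charging. The 15 are not all of this kind, since FCGR1A and RBBP8 also hold the match. Of the matched genes, most on the stress response list and most with a higher response did not hold it. The 8 letters of the match are in capitals, and the strand shown is the gene's own, so that a match on the other strand reads TTNCATCA.
ASNS, chr7:97872439-97872506, minus strand: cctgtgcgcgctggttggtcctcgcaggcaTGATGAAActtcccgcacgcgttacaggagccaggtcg
CHAC1, chr15:40953232-40953299, plus strand: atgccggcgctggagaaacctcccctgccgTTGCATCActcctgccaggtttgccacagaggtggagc
SLC3A2, chr11:62881706-62881748, plus strand: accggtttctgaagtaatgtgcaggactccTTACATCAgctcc
SLC7A1, chr13:29595644-29595711, minus strand: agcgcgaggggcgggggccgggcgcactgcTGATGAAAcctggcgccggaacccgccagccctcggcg
SLC1A5, chr19:46784874-46784941, minus strand: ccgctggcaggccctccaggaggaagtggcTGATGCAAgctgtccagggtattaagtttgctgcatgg
GARS1, chr7:30594815-30594882, plus strand: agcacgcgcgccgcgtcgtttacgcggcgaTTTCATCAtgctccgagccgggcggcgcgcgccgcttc
MARS1, chr12:57488034-57488101, plus strand: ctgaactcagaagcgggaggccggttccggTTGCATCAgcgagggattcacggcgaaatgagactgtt
BCAT1, chr12:24949112-24949179, minus strand: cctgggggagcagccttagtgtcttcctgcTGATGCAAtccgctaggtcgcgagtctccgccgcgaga

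Of the pathway's transcription factors on the list, ATF5 had the largest response difference and ATF4 the smallest. ATF4 mRNA stood at 7076, 7657 and 7398 with decitabine and 8004, 8252 and 8350 with DMSO in MOLM-13. In MOLM-14 it stood at 3177, 3685 and 3270 with decitabine and 6097, 6166 and 6267 with DMSO. The groups did not overlap in either line, the fall passed in MOLM-14 alone (-0.87, adjusted p = 1.67e-05 by limma) and not in MOLM-13 (-0.15, adjusted p = 0.272), and the response difference was 0.72 (SE 0.09, adjusted p = 0.00467). ATF4 is controlled mainly through translation of its mRNA, and protein was not measured.

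ATF5, a stress-induced relative of ATF4 whose gene spans chr19:49928702-49933935 (GRCh38, GENCODE 29), moved in opposite directions. It stood at 2382, 2402 and 2236 with decitabine and 678, 729 and 702 with DMSO in MOLM-13. In MOLM-14 it stood at 366, 401 and 322 with decitabine and 908, 1048 and 856 with DMSO. Every decitabine library lay above every DMSO library in MOLM-13 and below every DMSO library in MOLM-14. ATF5 rose by 1.73 in MOLM-13 (adjusted p = 2.69e-05) and fell by 1.37 in MOLM-14 (adjusted p = 1.78e-05), a difference of 3.10 (SE 0.15, adjusted p = 6.57e-06 by limma). It was the single list member that rose in MOLM-13.

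DDIT3 encodes CHOP, a stress factor linked to cell death. It stood at 238, 239 and 218 with decitabine and 196, 205 and 221 with DMSO in MOLM-13, and at 238, 206 and 202 with decitabine and 409, 613 and 405 with DMSO in MOLM-14. The MOLM-14 groups were far apart while those of MOLM-13 overlapped, and the difference was 1.28 (SE 0.23, adjusted p = 0.0253 by limma). That call was lost without any 1 of the 6 MOLM-13 libraries (adjusted p 0.0565 to 0.0926) and without replicate 3 of MOLM-14 with decitabine (0.0506). ATF3, another factor of the pathway, had a difference of 1.50 (SE 0.31, adjusted p = 0.0453) that held in 9 of 22 other settings and was lost, among others, without any 1 MOLM-13 library (adjusted p 0.1 to 0.14) and without replicate 1 of MOLM-14 with decitabine (0.0617) or any MOLM-14 DMSO library (0.0637 to 0.0828). CEBPB, a C/EBP partner of ATF4, had a difference of 1.22 that did not pass (adjusted p = 0.11).

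Several amino acid synthesis genes fell in MOLM-14. ASNS, which makes asparagine (chr7:97852118-97872542), stood at 5344, 5521 and 5280 with decitabine and 6338, 6490 and 7172 with DMSO in MOLM-13. In MOLM-14 it stood at 795, 611 and 871 with decitabine and 4529, 4037 and 5325 with DMSO. The MOLM-14 decitabine libraries lay far under all others, while the DMSO levels of the lines were much closer. The response was -0.31 in MOLM-13 (adjusted p = 0.266) and -2.61 in MOLM-14 (adjusted p = 1.38e-06), a difference of 2.31 (SE 0.19, adjusted p = 0.000288 by limma).

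Serine is made from a glycolysis intermediate by PHGDH, PSAT1 and PSPH. PHGDH, the entry enzyme, stood at 2373, 2618 and 2489 with decitabine and 3379, 3536 and 3544 with DMSO in MOLM-13, and at 773, 622 and 864 with decitabine and 2965, 2914 and 3088 with DMSO in MOLM-14. PSAT1, the next enzyme, stood at 5163, 5394 and 5496 with decitabine and 7609, 7663 and 7448 with DMSO in MOLM-13, and at 1244, 1290 and 1328 with decitabine and 6107, 5550 and 6670 with DMSO in MOLM-14. Both fell in both lines, and by more in MOLM-14. The response of PSAT1 was -0.50 (adjusted p = 0.00575) in MOLM-13 and -2.24 (adjusted p = 4.43e-08) in MOLM-14, and the differences were 1.74 for PSAT1 (SE 0.10, adjusted p = 1.91e-05) and 1.52 for PHGDH (SE 0.15, adjusted p = 0.00077). PSPH, the last enzyme, fell in both lines (-0.59 in MOLM-13 and -1.17 in MOLM-14) without a called difference (0.58, adjusted p = 0.183).

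Serine feeds the mitochondrial folate pathway. SHMT2, which takes the carbon unit from serine, had responses of -0.26 (adjusted p = 0.106) in MOLM-13 and -1.10 (adjusted p = 1.13e-05) in MOLM-14. MTHFD2, the next step, had -0.41 (adjusted p = 0.0188) and -1.05 (adjusted p = 1.38e-05), and ALDH1L2, a mitochondrial folate dehydrogenase, fell in MOLM-14 to 3285, 3107 and 3051, against 10693, 10289 and 10199 with DMSO. The ALDH1L2 libraries of MOLM-13 lay at 3990, 3978 and 4130 with decitabine and 4829, 4862 and 4813 with DMSO, a far narrower gap. The differences were 0.84 for SHMT2 (adjusted p = 0.00467 by limma), 0.64 for MTHFD2 (adjusted p = 0.0188) and 1.46 for ALDH1L2 (SE 0.08, adjusted p = 1.06e-05). With 1 spread estimated over the 30 libraries of 5 lines, ALDH1L2 (adjusted p = 0.559) and MTHFD2 (0.122) lost their calls, and MTHFD2 also lost its without any 1 MOLM-13 library other than DMSO replicate 2 (0.0575 to 0.0646).

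Stress effectors fell deeply in MOLM-14. CHAC1, which breaks down glutathione (chr15:40952962-40956519), stood at 213, 234 and 223 with decitabine and 250.3, 248 and 244 with DMSO in MOLM-13. In MOLM-14 it stood at 24.3, 20.3 and 16.4 with decitabine and 143, 198 and 161 with DMSO. The difference was 2.83 (SE 0.25, adjusted p = 0.000386 by limma), made up of -0.15 (adjusted p = 0.821) in MOLM-13 and -2.98 (adjusted p = 3.71e-06) in MOLM-14. The shallow MOLM-14 decitabine library rests on about 2 reads for this gene at 10.3 units a read, and the other libraries of the group lay on either side of it.

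ADM2, a secreted peptide of the adrenomedullin family, fell to 23.0, 31.0 and 24.9 with decitabine, against 240.2, 209 and 262 with DMSO, in MOLM-14. In MOLM-13 it stood at 240.3, 259 and 236 with decitabine and 302, 324 and 322 with DMSO. TRIB3, a pseudokinase that feeds back on ATF4, stood at 831, 870.3 and 901 with decitabine and 1299, 1310 and 1301 with DMSO in MOLM-13, and at 147, 137 and 155 with decitabine and 764, 823 and 741 with DMSO in MOLM-14. Both genes separated decitabine from DMSO in both lines, by far more in MOLM-14, with differences of 2.76 for ADM2 (SE 0.22, adjusted p = 0.000211) and 1.81 for TRIB3 (SE 0.13, adjusted p = 7.6e-05 by limma). STC2, a secreted glycoprotein, had a difference of 2.35 (SE 0.25, adjusted p = 0.0013), which did not pass in the fit over 30 libraries (adjusted p = 0.0553). DDIT4, an inhibitor of mTORC1, had 1.38 (SE 0.13, adjusted p = 0.000468) and fell in MOLM-14 alone (-1.40).

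The amino acid transporters followed. SLC7A11, the cystine importer, fell in MOLM-14 to 1169, 687 and 789 with decitabine, against 4012, 3501 and 3225 with DMSO. In MOLM-13 it stood at 1281, 1273 and 1273 with decitabine and 1799, 1816 and 1710 with DMSO. SLC3A2, the chain shared by SLC7A11 and SLC7A5, stood at 1774, 2188 and 2090 with decitabine and 1842, 2579 and 2464 with DMSO in MOLM-13, and at 564, 540.0 and 538 with decitabine and 1841, 1929 and 1872 with DMSO in MOLM-14. The MOLM-13 groups of SLC3A2 overlapped and those of MOLM-14 were far apart. The differences were 1.58 for SLC7A11 (SE 0.23, adjusted p = 0.00891 by limma), 1.60 for SLC3A2 (SE 0.18, adjusted p = 0.00141), 1.52 for SLC7A5, the large neutral amino acid carrier (adjusted p = 0.0156), 0.95 for SLC7A1, a cationic amino acid carrier (adjusted p = 0.000495), and 1.12 for SLC38A2, a neutral amino acid carrier (adjusted p = 0.000815). SLC7A5 lost its call without replicate 1 or 3 of MOLM-13 with decitabine (adjusted p = 0.0509 and 0.0538) and without replicate 1 or 2 of MOLM-13 with DMSO (0.0525 and 0.0541).

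Of the list, CEBPB, PSPH, XPOT and PPP1R15A had no called difference. PPP1R15A, which recruits the phosphatase of eIF2, was the single member that did not fall in MOLM-14 (-0.02, adjusted p = 0.953 by limma), with a difference of 0.28 (adjusted p = 0.531). Off the list, SLC1A5, the glutamine carrier with the letters shown above, had a difference of 0.81 (SE 0.10, adjusted p = 0.00306) and BCAT1, which transfers amino groups of branched-chain amino acids, one of 0.84 (adjusted p = 0.0251), and both fell in both lines. BCAT1 lost its call without any 1 MOLM-13 library (adjusted p 0.0668 to 0.0807).

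Cytosolic tRNA synthetases, which charge tRNA with amino acids and are also ATF4 targets, were looked at after the values were seen. Of 17, the difference was higher in MOLM-13 at 6 (GARS1, SARS1, MARS1, AARS1, YARS1 and IARS1) and lower at 0, against 0.698% and 0.708% of all genes, with a median of 0.38. In MOLM-13 2 of the 17 fell (2.17% of all genes) and in MOLM-14 11 fell (5.45% of all genes), and 0 rose in either line. SARS1 stood at 3192, 3434 and 3184 with decitabine and 3301, 3217 and 3418 with DMSO in MOLM-13, and at 1221, 1397 and 1188 with decitabine and 2654, 3009 and 2583 with DMSO in MOLM-14. Its difference was 1.10 (SE 0.12, adjusted p = 0.00141 by limma), the groups of MOLM-13 overlapped, and those of MOLM-14 did not. AARS1 (0.82) and SARS1 kept their calls in all 22 other settings, while GARS1 (1.22) and IARS1 (0.58) kept theirs in 10, MARS1 (1.07) in 13 and YARS1 (0.60) in 19.

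**Figure D2:**
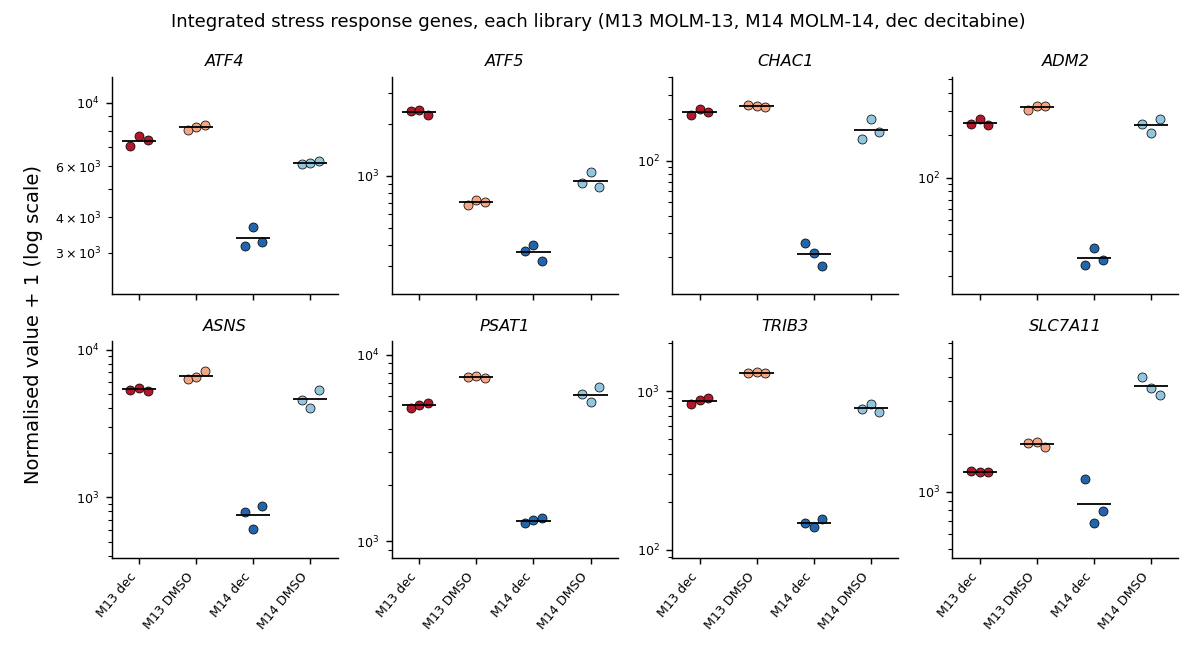
Normalised value plus 1 (log scale) of 8 integrated stress response genes in each of the 12 libraries, with decitabine left of DMSO for MOLM-13 and then MOLM-14, and a bar at the mean of each group on the log scale. The MOLM-14 decitabine libraries are the lowest group in all 8 panels, and ATF5 is the panel where MOLM-13 with decitabine is the highest group.

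The fall in MOLM-14 was not particular to it among the 5 lines of the table. In the fit over 30 libraries 14 of the 26 stress response genes fell and 0 rose in OCI-AML3 (median response -0.64). In SKM-1 17 fell and 2 rose (median -0.79), and in KG-1 0 fell and 3 rose (median 0.07). Of all 18349 genes, 354 fell and 707 rose in OCI-AML3, 720 fell and 877 rose in SKM-1, and 138 fell and 599 rose in KG-1. No test was made between those lines and the sister lines.

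Part of the monocyte and macrophage genes rose in each line, and the median response was larger in MOLM-14. Of 36 on the list 32 were tested, since CD14, FCGR3A, S100A12 and MRC1 stayed at or under 3.59 in all 12 libraries. In MOLM-13, 11 rose and 0 fell (median response 0.67), and in MOLM-14, 21 rose and 0 fell (median 1.14). Of all genes tested 1.72% rose in MOLM-13 and 6.28% in MOLM-14. Fitted within each line alone 19 rose in MOLM-13 and 13 in MOLM-14, so the order of these counts rests on the shared spread while that of the medians does not. The response difference was lower in MOLM-13 at 4 genes and higher at 1, against 0.708% and 0.698% of all genes, with a median of -0.45. Without any 1 MOLM-13 library other than DMSO replicate 3 the 4 became 2, and without both shallow MOLM-14 libraries 11 were lower and 2 higher. The list took 0.166% to 0.170% of all value with decitabine and 0.117% to 0.119% with DMSO in MOLM-13. In MOLM-14 it took 0.170% to 0.175% with decitabine and 0.0916% to 0.0930% with DMSO. The summed shares were thus closer with decitabine, but a sum is weighted to the highest genes. Gene by gene, the median of MOLM-13 minus MOLM-14 (log2) was 0.25 with DMSO and -0.26 with decitabine. MOLM-13 was higher at 19 of the 32 genes with DMSO and at 14 with decitabine. In these bulk samples more cells of a type and more RNA per cell cannot be told apart.

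CSF1R, the receptor for macrophage colony-stimulating factor (chr5:150053291-150113372), rose in MOLM-14 to 345, 272 and 329.8 with decitabine, against 49.6, 76.2 and 51.3 with DMSO. In MOLM-13 it stood at 346, 332 and 351 with decitabine and 215, 236 and 251 with DMSO. The libraries of the lines overlapped with decitabine and were far apart with DMSO. The response was 0.55 (adjusted p = 0.118) in MOLM-13 and 2.42 (adjusted p = 1.13e-05) in MOLM-14, a difference of -1.87 (SE 0.25, adjusted p = 0.00485 by limma). The call was lost in the fit over 30 libraries (adjusted p = 0.187).

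S100A8 and S100A9 form calprotectin, the main calcium-binding protein of monocytes and neutrophils. S100A8 stood at 24.3, 28.0 and 27.4 with decitabine and 12.8, 21.2 and 11.9 with DMSO in MOLM-13, and at 337, 387 and 396 with decitabine and 40.6, 30.4 and 63.0 with DMSO in MOLM-14. S100A9 stood at 94.7, 79.7 and 85.9 with decitabine and 42.8, 49.8 and 29.1 with DMSO in MOLM-13, and at 503, 688 and 506 with decitabine and 78.0, 70.4 and 76.7 with DMSO in MOLM-14. Decitabine and DMSO libraries were apart for both genes in both lines, with the wider gap in MOLM-14. The differences were -2.30 for S100A8 (SE 0.42, adjusted p = 0.0251 by limma) and -1.77 for S100A9 (SE 0.30, adjusted p = 0.0184). The S100A9 call was lost without any 1 MOLM-13 library other than DMSO replicate 3 (adjusted p 0.0513 to 0.0626). The S100A8 call was lost without the same 5 libraries (0.0556 to 0.0844), without replicate 3 of MOLM-14 with decitabine (0.0546) or replicate 1 with DMSO (0.056), and in the fit over 30 libraries (0.11).

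FCGR2A, a low-affinity receptor for IgG, rose in MOLM-14 alone, to 2124, 2119 and 2326 with decitabine, against 1265, 1418 and 1339 with DMSO. In MOLM-13 it stood at 1425, 1525 and 1506 with decitabine and 1692, 1649 and 1484 with DMSO, and the difference was -0.82 (SE 0.12, adjusted p = 0.00703 by limma). FCGR1A, the high-affinity receptor, went the other way: it rose in MOLM-13 (0.50, adjusted p = 0.0399) and not in MOLM-14 (-0.33, adjusted p = 0.0959), with a difference of 0.83 (adjusted p = 0.0384) that held in 11 of 22 other settings and was lost without any 1 MOLM-13 library (adjusted p 0.061 to 0.128). FCGR1A has near-identical copies in the genome, so its value is uncertain. CD86, a costimulatory ligand, rose in both lines, by 0.99 in MOLM-13 and 2.39 in MOLM-14, without a called difference (-1.40, adjusted p = 0.053).

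LYZ, the lysozyme of monocyte granules, was the plainest case of a shared response. It stood at 14572, 14714 and 15066 with decitabine and 7312, 6760 and 7183 with DMSO in MOLM-13, and at 8762, 7913 and 8753 with decitabine and 3911, 3564 and 4009 with DMSO in MOLM-14. It rose in both lines (1.06, adjusted p = 3.01e-05, and 1.15, adjusted p = 3.27e-06), and the difference was -0.09 (SE 0.10, adjusted p = 0.717 by limma). Among neutrophil granule genes, 12 of 21 were tested. In MOLM-13 4 rose and 0 fell, and in MOLM-14 8 rose and 0 fell, against 1.72% and 6.28% of all genes rising. Of the 12, 1 had a called difference, lower in MOLM-13, against 0.708% of all genes. That gene, SRGN, encodes the proteoglycan that packs granule proteins. It stood at 31500, 31993 and 31695 with decitabine and 24595, 24609 and 22995 with DMSO in MOLM-13, and at 26865, 22882 and 28652 with decitabine and 8624, 7441 and 9596 with DMSO in MOLM-14 (difference -1.21, SE 0.14, adjusted p = 0.00196). MPO, the peroxidase of primary granules, rose in both lines (2.50 in MOLM-13 and 2.12 in MOLM-14) without a called difference (0.38, adjusted p = 0.759).

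**Figure D3:**
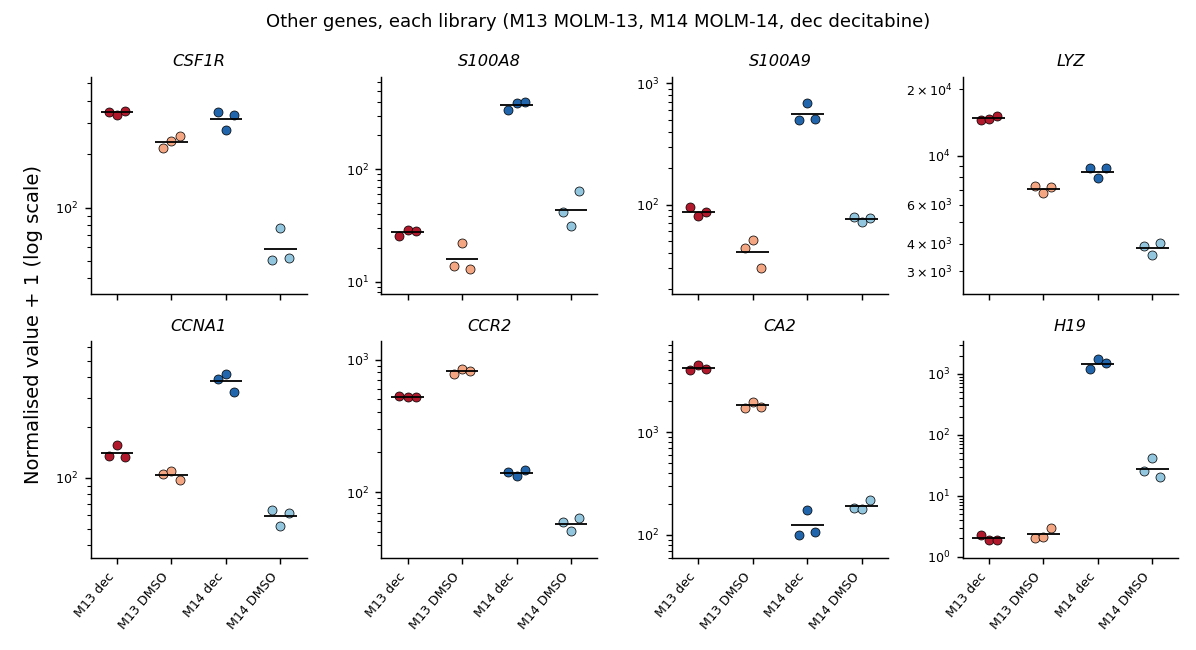
Normalised value plus 1 (log scale) of 8 further genes in each of the 12 libraries, with decitabine left of DMSO for MOLM-13 and then MOLM-14, and a bar at the mean of each group on the log scale. CSF1R, S100A8, S100A9 and CCNA1 show the wider gap in MOLM-14, LYZ a like gap in both lines, CCR2 and CA2 opposite directions, and H19 values at 1.98 or under in MOLM-13.

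Beyond the lists, the genes of largest difference in the lower direction included CCNA1 and CCR2. CCNA1, a cyclin of germ cells and myeloid progenitors (chr13:36431520-36442882), stood at 134, 155 and 132 with decitabine and 104, 109 and 96.2 with DMSO in MOLM-13, and at 388, 417 and 326 with decitabine and 63.7, 50.9 and 60.5 with DMSO in MOLM-14. The difference was -2.23 (SE 0.22, adjusted p = 0.00077 by limma). CCR2, the chemokine receptor of classical monocytes (chr3:46353734-46360928), stood at 533, 524 and 517 with decitabine and 778, 850.4 and 825 with DMSO in MOLM-13, and at 140.0, 132 and 147 with decitabine and 58.5, 50.1 and 62.6 with DMSO in MOLM-14. It fell by 0.64 in MOLM-13 (adjusted p = 0.0174) and rose by 1.28 in MOLM-14 (adjusted p = 7.6e-05), which narrowed a large gap between the lines, and the difference was -1.92 (SE 0.17, adjusted p = 0.000386). Both genes kept their calls in all 22 other settings.

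GBP5, an interferon-induced GTPase, rose in MOLM-14 to 341, 463 and 297 with decitabine, against 69.8, 32.1 and 67.6 with DMSO. Its MOLM-13 libraries lay at 165, 142 and 138 with decitabine and 135, 116 and 129.8 with DMSO, and the difference was -2.51 (SE 0.39, adjusted p = 0.013 by limma). With the replicate number as a block the call was lost (adjusted p = 0.0758). FLVCR2, a membrane transporter, CHRNA6, a nicotinic receptor subunit, TGM5, a transglutaminase, NANOS1, an RNA-binding regulator, and CHST2, a sulfotransferase, rose in MOLM-14 without a change that passed in MOLM-13. Their differences ran between -2.19 for CHRNA6 and -1.55 for CHST2. In the fit over 30 libraries CHRNA6 (adjusted p = 0.191), TGM5 (0.281) and FLVCR2 (0.369) were no longer called. Without any 1 MOLM-13 library the calls of TGM5 (0.0969 to 0.123), NANOS1 (0.095 to 0.143) and CHST2 (0.052 to 0.0674) were lost, and that of FLVCR2 without replicate 2 or 3 with decitabine or replicate 2 with DMSO of MOLM-13 (0.0511 to 0.0552). TGM5 also lost its call without replicate 1 of MOLM-14 with decitabine or replicate 2 or 3 with DMSO (0.0512 to 0.0627), and NANOS1 without replicate 1 or 3 with decitabine or replicate 1 or 2 with DMSO of MOLM-14 (0.0562 to 0.0948).

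CA2, carbonic anhydrase 2, moved in opposite directions in the lines, as ATF5 did. It stood at 4015, 4503 and 4080 with decitabine and 1735, 1964 and 1775 with DMSO in MOLM-13, and at 99.8, 175 and 105 with decitabine and 180.0, 179 and 218 with DMSO in MOLM-14. It rose by 1.20 in MOLM-13 (adjusted p = 0.00783) and fell by 0.64 in MOLM-14 (adjusted p = 0.0497), a difference of 1.84 (SE 0.26, adjusted p = 0.00844 by limma) that was called in all other settings. ADGRD1, an adhesion G protein-coupled receptor, stood at 71.0, 56.9 and 68.3 with decitabine and 17.0, 16.9 and 14.2 with DMSO in MOLM-13, and at 167, 112 and 212 with decitabine and 245, 346 and 255 with DMSO in MOLM-14. Its difference was 2.78 (adjusted p = 0.00363), with a rise in MOLM-13 and a response of -0.82 in MOLM-14 that did not pass (adjusted p = 0.0554). The call was lost in the fit over 30 libraries (adjusted p = 0.167).

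Further genes that passed in opposite directions were OGT, the enzyme that adds N-acetylglucosamine to proteins, PLAUR, the urokinase receptor, and ACAT2, an acetyl-CoA acetyltransferase. OGT rose in MOLM-13 (0.63) and fell in MOLM-14 (-0.47), with a difference of 1.10 (adjusted p = 0.0129 by limma) that was lost without DMSO replicate 2 of MOLM-13 (adjusted p = 0.051). PLAUR fell in MOLM-13 (-0.76) and rose in MOLM-14 (0.61), with a difference of -1.37 (adjusted p = 0.0257) that was lost without any 1 MOLM-13 library (0.063 to 0.0926) and without DMSO replicate 1 of MOLM-14 (0.0609). ACAT2 fell in MOLM-13 (-0.44) and rose in MOLM-14 (0.43), with a difference of -0.86 (adjusted p = 0.0138) that was lost without replicate 1 of MOLM-13 with decitabine (0.0526) or replicate 1 or 2 with DMSO (0.0516 and 0.0596).

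Some differences concerned genes that were barely read in 1 of the lines. H19, an imprinted noncoding RNA of the IGF2 locus (chr11:1995176-2001470), rose in MOLM-14 to 1198, 1731 and 1531 with decitabine, against 24.3, 41.3 and 19.1 with DMSO. In MOLM-13 it lay at 0.874 to 1.29 with decitabine and 1.06 to 1.98 with DMSO, near what a few reads give, so the line showed no H19 in either arm that could be told from a handful of reads. The response in MOLM-14 was 5.73 (adjusted p = 4.29e-06 by limma) and the difference -5.96 (SE 0.50, adjusted p = 0.000314). SEMA6A, a semaphorin, rose in MOLM-14 to 905, 1030 and 879 with decitabine, against 253, 160.3 and 229 with DMSO, and MAP1B, a microtubule-binding protein, fell to 698, 848 and 818, against 3337, 3665 and 2877. In MOLM-13 SEMA6A stayed at or under 1.27 and MAP1B at or under 1.14. SEMA6A thus showed no rise there, while a fall of MAP1B could not have been measured. The differences of -2.33 and 2.37 rest on the change in MOLM-14. The SEMA6A call was lost without any 1 library other than DMSO replicate 1 of MOLM-13 (adjusted p 0.0589 to 0.118). The MAP1B call was lost without any 1 MOLM-13 library other than decitabine replicate 2 (0.051 to 0.0811), without replicate 1 or 3 of MOLM-14 with decitabine (0.0663 and 0.0532) and without replicate 1 with DMSO (0.0705). MFAP4, a matrix protein, fell in MOLM-14 to 302, 336 and 275 with decitabine, against 875, 987 and 785 with DMSO, while MOLM-13 lay between 3.04 and 12.6. The calls of MFAP4 (adjusted p = 0.179) and MAP1B (0.116) were lost in the fit over 30 libraries. Of the 258 genes, 6 had a mean value under 10 in both arms of MOLM-13 and 1 in both arms of MOLM-14.

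SLC6A9, a glycine transporter and stress response target that is not on the list, had the largest higher difference among the named genes (5.16, SE 0.82, adjusted p = 0.0131 by limma). It stood at 84.1, 88.4 and 79.1 with decitabine and 98.5, 95.3 and 107 with DMSO in MOLM-13, and at 6.23, 0 and 4.07 with decitabine and 111, 182 and 138 with DMSO in MOLM-14. The MOLM-14 decitabine values stand on a few reads each, so the size of that fall is uncertain, and the call was lost without DMSO replicate 2 of MOLM-13 (adjusted p = 0.051). FAM95C rose in MOLM-13, to 125, 113 and 168 against 47.6, 46.7 and 47.1 with DMSO, and fell in MOLM-14, to 12.5, 15.9 and 7.33 against 37.2, 44.7 and 42.5 (difference 3.26, adjusted p = 0.00306). Its call was lost in the fit over 30 libraries (adjusted p = 0.069). ZNF117, a zinc finger gene that shares its locus and reads with the domesticated retroviral gene ERV3-1 (chr7:64971776-65006684), rose in MOLM-13 to 164, 178 and 114 with decitabine, against 21.7, 21.3 and 20.1 with DMSO. In MOLM-14 it was already high, at 3440, 3288 and 3448 with decitabine and 2403, 2427 and 2457 with DMSO, and the difference was 2.29. NDUFA4L2, a hypoxia-induced mitochondrial protein, had a difference of 3.01 (adjusted p = 0.041) that was lost without any 1 MOLM-13 library (0.0535 to 0.129) and without any 1 MOLM-14 library other than DMSO replicate 2 (0.0518 to 0.0816).

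Cholesterol synthesis genes had a median response above 0 in MOLM-14 and slightly under 0 in MOLM-13. Of 24 listed, 23 were tested. In MOLM-13, 2 fell and 0 rose (median response -0.15), against 2.17% and 1.72% of all genes. In MOLM-14, 10 rose and 0 fell (median 0.46), against 6.28% and 5.45% of all genes. The difference was lower in MOLM-13 at 4 and higher at 0, against 0.708% and 0.698% of all genes, with a median of -0.62. With DMSO the list took 0.112% to 0.131% of all value in MOLM-13 and 0.111% to 0.127% in MOLM-14, and with decitabine 0.0994% to 0.104% in MOLM-13 and 0.143% to 0.156% in MOLM-14. The ranges of the lines overlapped with DMSO and were apart with decitabine. HMGCS1, which makes the precursor of mevalonate, stood at 602, 718 and 576 with decitabine and 682, 841 and 741 with DMSO in MOLM-13, and at 3124, 2304 and 3017 with decitabine and 1646, 1464 and 1730 with DMSO in MOLM-14.

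The HMGCS1 difference was -1.05 (SE 0.20, adjusted p = 0.0291 by limma). CYP51A1, a sterol demethylase, fell in MOLM-13 (-0.37, adjusted p = 0.0392) and rose in MOLM-14 (0.40, adjusted p = 0.0133), with a difference of -0.77 (adjusted p = 0.0131). MSMO1, a sterol oxidase, had -1.50 (adjusted p = 0.031). INSIG1, the brake on sterol synthesis, fell in MOLM-13 to 1507, 1675 and 1485 with decitabine, against 2903, 3580 and 2850 with DMSO, and had no called response in MOLM-14 (-0.09, adjusted p = 0.704; difference -0.91, adjusted p = 0.0422). These calls are few and unsteady in the cholesterol synthesis genes: 0 genes were called without replicate 1 of MOLM-13 with decitabine or replicate 2 with DMSO, 1 was called without replicate 3 of MOLM-13 with decitabine, without replicate 1 or 3 of MOLM-13 with DMSO or without replicate 1 of MOLM-14 with decitabine, and 2 were called without replicate 2 of MOLM-13 with decitabine or replicate 1 of MOLM-14 with DMSO. Without both shallow MOLM-14 libraries 8 were lower, and fitted within each line alone 1 rose and 7 fell in MOLM-13, while 0 rose or fell in MOLM-14.

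Among p53 targets, 27 of 28 were tested. In MOLM-13 5 rose and 0 fell, against 1.72% and 2.17% of all genes. In MOLM-14 12 rose and 2 fell, against 6.28% and 5.45% of all genes. The difference was lower in MOLM-13 at 2 and higher at 1 (median -0.23), against 0.708% and 0.698% of all genes. CDKN1A, the cell cycle inhibitor p21, rose in both lines, to 5510, 5712 and 5791 with decitabine against 3510, 3306 and 3410 with DMSO in MOLM-13, and to 6600, 6137 and 6076 with decitabine against 3537, 3187 and 2955 with DMSO in MOLM-14 (difference -0.23, SE 0.10, adjusted p = 0.356 by limma). MDM2, which degrades p53, rose in both lines, by 0.42 in MOLM-13 and 1.09 in MOLM-14 (difference -0.67, adjusted p = 0.0248). BTG2, an antiproliferative factor, rose in MOLM-14 alone (difference -1.05, adjusted p = 0.0411), and SESN2, a leucine sensor that ATF4 also induces, fell in MOLM-14 alone (difference 1.22, adjusted p = 0.03). MDM2, BTG2 and SESN2 each lost their call without any 1 MOLM-13 library (adjusted p 0.0509 to 0.0851 for MDM2, 0.0854 to 0.128 for BTG2 and 0.0647 to 0.108 for SESN2). MDM2 also lost its call without replicate 1 of MOLM-14 with decitabine (0.0563), SESN2 without replicate 1 of MOLM-14 with DMSO (0.0637), and BTG2 without any 1 MOLM-14 library other than replicate 2 with decitabine (0.0507 to 0.0846).

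DNA replication genes had negative median responses in both lines. For the lists of this paragraph, the shares of all genes were 1.72% rising and 2.17% falling in MOLM-13. In MOLM-14 they were 6.28% rising and 5.45% falling, and the difference was higher at 0.698% and lower at 0.708%. Of 32, 0 rose and 3 fell in MOLM-13 (median -0.17), 0 rose and 15 fell in MOLM-14 (median -0.39), and the difference was higher at 2 and lower at 0: CDT1, which loads the replicative helicase (0.96, adjusted p = 0.0148), and POLD1, a replicative polymerase (0.68, adjusted p = 0.0436). CDT1 lost its call without replicate 3 of MOLM-13 with decitabine (0.0584) or replicate 1 or 2 with DMSO (0.053 and 0.051), and POLD1 without any 1 MOLM-13 library (0.0695 to 0.133), without replicate 1 or 3 of MOLM-14 with decitabine (0.0785 and 0.068) and without replicate 2 or 3 with DMSO (0.0612 and 0.066). Mitosis genes had nearly equal medians: of 28, 0 rose and 10 fell in MOLM-13 (median -0.36), and 1 rose and 11 fell in MOLM-14 (median -0.35). The difference was lower in MOLM-13 at 1 mitosis gene, KIF20A (-0.71, adjusted p = 0.0463 by limma), and higher at 0. That call held in 7 of 22 other settings. Among 23 linker and core histone genes, 0 rose and 2 fell in MOLM-13 and 1 rose and 10 fell in MOLM-14, with 1 called difference, H2AC6 (0.72), which was lost without any 1 MOLM-13 library (0.0991 to 0.128), without replicate 1 of MOLM-14 with decitabine (0.0617) and without replicate 2 or 3 with DMSO (0.0589 and 0.0646). Of 31 ribosome biogenesis genes 6 fell in MOLM-13 and 14 in MOLM-14, 0 rose in either, and 0 had a called difference.

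MYC, a transcription factor of growth and ribosome genes, fell in both lines. It stood at 7258, 7788 and 7419 with decitabine and 11032, 10088 and 10389 with DMSO in MOLM-13, and at 3764, 3666 and 3732 with decitabine and 8385, 9867 and 7992 with DMSO in MOLM-14. The response was -0.49 (adjusted p = 0.00905) in MOLM-13 and -1.23 (adjusted p = 5.9e-06) in MOLM-14, with a difference of 0.74 (SE 0.11, adjusted p = 0.0107 by limma) called in all 22 other settings. Among 26 genes of FLT3, RAS and STAT5 signalling, the difference was higher in MOLM-13 at 1 (MYC), against 0.698% of all genes. It was lower at 3, against 0.708% of all genes. These were PIM1, a survival kinase (-1.15, adjusted p = 0.0148), PHLDA1, an immediate response gene (-1.38, adjusted p = 0.0303), and CCND3, cyclin D3 (-0.63, adjusted p = 0.0328), each of which rose in MOLM-14 alone. PIM1 lost its call without replicate 1 or 3 of MOLM-13 with decitabine or replicate 1 or 2 with DMSO (adjusted p 0.0509 to 0.0576). PHLDA1 lost its without any 1 MOLM-13 library (0.0661 to 0.107) and without replicate 1 of either MOLM-14 arm (0.0512 and 0.0637), and CCND3 without any 1 MOLM-13 library (0.0516 to 0.119), without replicate 1 or 3 of MOLM-14 with decitabine (0.0515 and 0.0506) and without replicate 1 with DMSO (0.0715). FLT3 itself had no called difference (-0.23, adjusted p = 0.251), nor did any of 29 KMT2A-fusion targets and progenitor genes.

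Genes that hypomethylating drugs are known to switch on were also looked at. With 0.698% of all genes called higher and 0.708% lower, lists of this size would hold few calls at the share of all genes, so a count of 0 is not a result about them. Of 38 interferon-stimulated genes the difference was called at 0 (median -0.43), with 1 rising and 1 falling in MOLM-13 and 11 rising and 1 falling in MOLM-14. Of 20 MHC class I genes and 11 of 14 MHC class II genes tested, 0 had a called difference. Of the MHC class I genes 3 rose in MOLM-13 and 5 in MOLM-14, and of the MHC class II genes 0 rose in MOLM-13 and 5 in MOLM-14. The share of all genes that rose was 1.72% in MOLM-13 and 6.28% in MOLM-14. Without both shallow MOLM-14 libraries 2 interferon-stimulated genes had a called difference, lower in MOLM-13. Of 45 cancer-testis and germline genes 8 were tested, and of these 0 had a called difference, 0 changed in MOLM-13 and 2 rose in MOLM-14. Of 14 tumour suppressors known to be methylated in cancer 0 had a called difference, with 0 rising in MOLM-13 and 2 in MOLM-14. The 13 mitochondrial mRNAs, which are not genes of this kind, also had 0 called differences. Of them 9 rose in MOLM-13 and 1 in MOLM-14. Their differences were above 0 at all 13 (median 0.48), against 9249 of all 18349 genes tested.

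Among genes that handle the drug or its target, 2 had a called difference, against 0.698% of all genes called higher and 0.708% lower. Of 17 DNA methylation genes 1 had a called difference, IDH1 (-0.58, adjusted p = 0.0304 by limma), a metabolic enzyme whose product TET enzymes need. Its call was lost without any 1 MOLM-13 library (0.0656 to 0.107), without replicate 1 or 3 of MOLM-14 with decitabine (0.0663 and 0.0567) and without replicate 1 with DMSO (0.0668). DNMT1, the maintenance methyltransferase that decitabine traps, had 0.73 (adjusted p = 0.257). Of 25 genes of decitabine uptake and metabolism 21 were tested and 1 had a called difference, SLC29A1, the nucleoside transporter ENT1. It stood at 699, 724 and 734 with decitabine and 654, 685 and 672 with DMSO in MOLM-13, and at 587, 489 and 632 with decitabine and 929, 959.6 and 848 with DMSO in MOLM-14 (difference 0.79, SE 0.15, adjusted p = 0.0299). SLC29A1 fell in MOLM-14 alone, and the call was lost without any 1 MOLM-13 library (0.074 to 0.0989) and without replicate 1 of MOLM-14 with DMSO (0.0637). DCK, the kinase that activates decitabine, fell in MOLM-13 (-0.44, adjusted p = 0.0259) with a difference of -0.31 (adjusted p = 0.303), and SAMHD1, which breaks down its triphosphate, rose in MOLM-14 (0.63, adjusted p = 0.00321) with a difference of -0.25 (adjusted p = 0.476).

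The lines also shared responses. Of the genes that passed in both lines without a called difference, 120 rose and 171 fell in both. BCL2, the antiapoptotic protein that venetoclax targets, fell in both lines, to 4989, 5423 and 5237 with decitabine against 10400, 9238 and 8965 with DMSO in MOLM-13, and to 2669, 2932 and 3677 with decitabine against 5105, 4833 and 6695 with DMSO in MOLM-14. Its responses were -0.87 and -0.84. TKTL1, ZNF595, MPO, ADGRE4P, LINC00599 and NFAM1 rose in both lines, and CNTN4, PDCD2L, DDN, PPM1E and SLC27A2 fell in both.

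**Figure D4:**
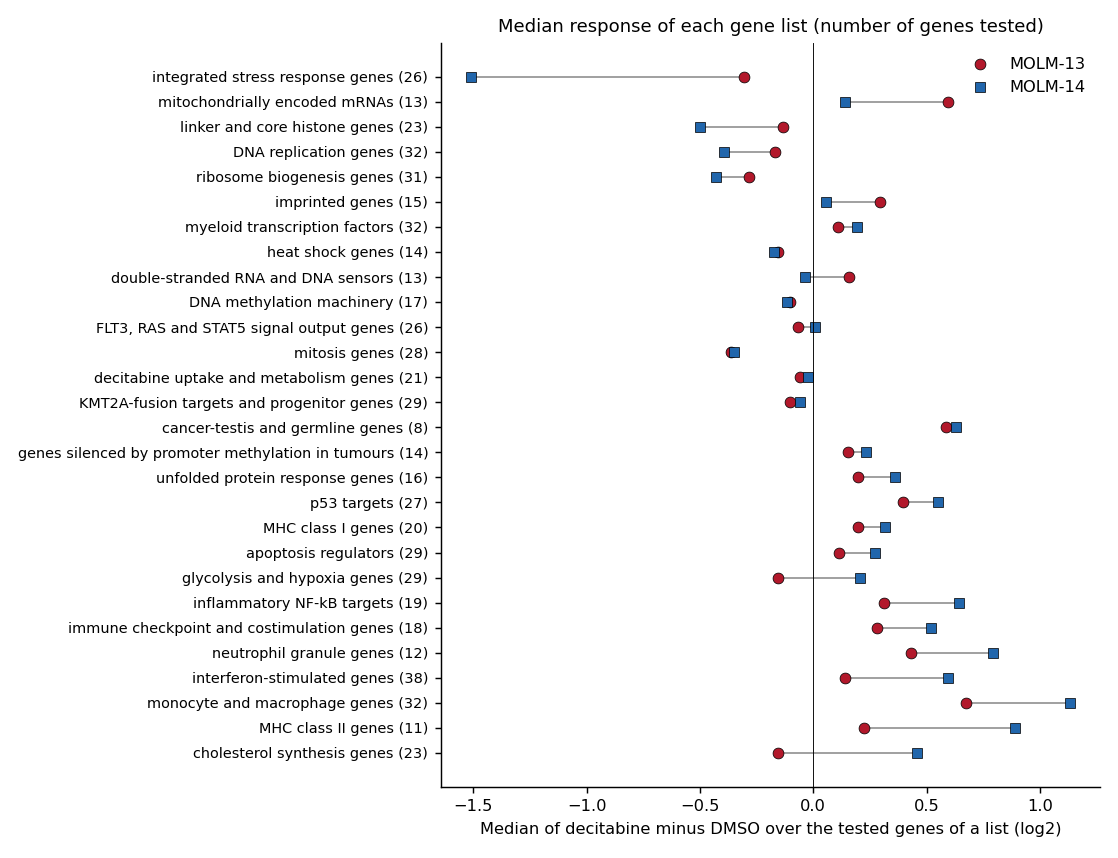
Median response to decitabine (log2, decitabine minus DMSO) over the tested genes of 28 lists, with MOLM-13 as circles and MOLM-14 as squares, ordered by the median response difference. The integrated stress response genes, at -0.31 in MOLM-13 and -1.51 in MOLM-14, have the widest gap of the lists plotted, and cholesterol synthesis genes lie on opposite sides of 0.

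Markers of other cell types took small shares of all value, and some of their lists moved. Of 20 lymphoid, 16 erythroid, 15 megakaryocyte, 12 epithelial and 13 fibroblast markers, 6, 4, 7, 7 and 8 were tested, and 1 had a called difference: NFE2, a megakaryocyte and myeloid factor (-0.96, adjusted p = 0.0258 by limma), a call lost without any 1 MOLM-13 library (0.0513 to 0.0935). The median response difference was 1.13 for the fibroblast, -0.62 for the erythroid, 0.50 for the epithelial, -0.40 for the megakaryocyte and -0.21 for the lymphoid markers. The fibroblast markers took 0.0214% to 0.0221% of all value with decitabine and 0.0148% to 0.0167% with DMSO in MOLM-13, and 0.0409% to 0.0443% with decitabine and 0.0277% to 0.0305% with DMSO in MOLM-14. The epithelial markers took 0.00224% to 0.00311% with decitabine and 0.000981% to 0.00163% with DMSO in MOLM-13, and 0.00792% to 0.00938% with decitabine and 0.00397% to 0.0202% with DMSO in MOLM-14. Summed fibroblast shares were thus higher with decitabine in both lines and epithelial shares in MOLM-13, while the epithelial ranges of MOLM-14 overlapped. A sum is weighted to the highest genes. Gene by gene, 7 of the 8 fibroblast markers had a response above 0 in MOLM-13 (median 0.61) and 4 in MOLM-14 (median -0.30). The fibroblast response difference was above 0 at 4 markers and below 0 at 4. The part of the markers of these cell types in the response differences was not tested. The share of all value taken by mitochondrially encoded genes, which follows RNA handling as well as biology, was 18.7% ± 0.454 with decitabine and 13.5% ± 0.877 with DMSO in MOLM-13, and 10.9% ± 0.512 with decitabine and 8.66% ± 0.535 with DMSO in MOLM-14 (SD, n = 3 each). The rise was 5.19 percentage points in MOLM-13 and 2.21 in MOLM-14, a difference of 2.98 points (two-sided exact permutation p = 0.1, the smallest that 3 against 3 allow), of which 2.47 points were ribosomal RNA. The part of the mitochondrial share in the response differences was not tested. After scaling to the total without mitochondrial genes the response of 22 of the 26 stress response genes was higher in MOLM-13.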

How the data were processed

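RNA of MOLM-13 and MOLM-14 was measured by total RNA sequencing (single-end reads of a stranded library kit, per the labels' protocols). The deposited table holds a normalised signal per gene and library, never negative and not whole, which the authors made from estimated counts divided by normalisation factors. Build hg38, DESeq2, limma, featureCounts, STAR and Salmon 1.2.1 are named in the submitters' processing notes, without their roles. The annotation release and the strand setting of the counting are not given in the sources used here, so overlapping and antisense genes are uncertain. Between 44% and 65% of low values were whole multiples of the smallest step (tolerance 0.02), so reads were not recovered and no count model was run. The estimated reads per library are the total divided by that step. Gene positions come from GENCODE 29 (GRCh38), which matched 58064 of 60240 genes, and the coordinates are 1-based.

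Values were taken as log2(value + 1), which understates the change of low genes. limma 3.58.1 (R 4.3.3, statmod 1.5.0) fitted 4 group means to the 12 libraries with trended, robust moderated variances, which gives 8 residual degrees of freedom before moderation. p-values were adjusted by Benjamini-Hochberg over 18349 genes, those that reached 10 in 3 or more libraries, and called at 0.05. Tables were handled in Python 3.11.15 with numpy 2.4.6 and pandas 2.3.3. On simulated data the estimates followed the size of the set differences, and those that were called had the right direction. Many of the set differences were not called, so a gene without a call may still differ. The share of false calls was clearly above the nominal level, so the list of called genes holds more false calls than an adjusted p of 0.05 allows.

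The gene lists (33 lists, 764 genes) and the comparison were chosen with earlier results of these data known, and patterns seen there have no independent support here. The rule for named genes takes the 12 largest called differences in each direction with a mean value of at least 50 and groups that do not overlap, then genes called in opposite directions in both lines, genes called alike in both, and up to 4 genes per list by lowest p. The other stress response genes, the tRNA synthetases, genes named with the promoter search and FCGR1A were named after their values were seen. The text gives only part of the genes that the rule takes, and the others are not reported here. Intervals for counts cannot be given, and depth limits the precision of low genes in the shallow libraries. Another 12 columns of the table belong to no labelled sample and were not used, and 2 of the 7 lines in the labels were not analysed here.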

Additional observations from a re-analysis of the deposited data

Results flagged for a closer look

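The values in this part are response differences (the response of MOLM-13 minus that of MOLM-14, log2) of the 84 named genes whose 2 lines differed by limma's test of the difference itself, with adjusted p under 0.05. A positive difference means a higher response in MOLM-13, whatever the level of the gene in the lines. Their directions were the same in every other setting in which they were fitted, which picking them by their call in the same libraries nearly fixed beforehand.

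Among integrated stress response genes the differences were 3.10 for ATF5, 2.83 for CHAC1, 2.76 for ADM2, 2.35 for STC2, 2.31 for ASNS, 1.81 for TRIB3 and 1.74 for PSAT1. They were 1.60 for SLC3A2, 1.58 for SLC7A11, 1.52 for PHGDH, 1.52 for SLC7A5, 1.50 for ATF3 and 1.46 for ALDH1L2. They were 1.38 for DDIT4, 1.28 for DDIT3, 1.12 for SLC38A2, 0.95 for SLC7A1, 0.84 for SHMT2, 0.82 for VLDLR, 0.72 for ATF4 and 0.64 for MTHFD2, and 1.22 for SESN2, which also stands among the p53 targets. Among genes of amino acid use and tRNA charging they were 5.16 for SLC6A9, 1.22 for GARS1, 1.10 for SARS1, 1.07 for MARS1, 0.84 for BCAT1, 0.82 for AARS1, 0.81 for SLC1A5, 0.79 for SLC38A1, 0.60 for YARS1, 0.58 for IARS1 and 0.52 for SLC1A4.

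Other genes with a higher response in MOLM-13 were FAM95C at 3.26, NDUFA4L2 at 3.01, ADGRD1 at 2.78, MFAP4 at 2.57, MAP1B at 2.37, ZNF117 at 2.29 and CA2 at 1.84. To these came VEGFA at 1.35, GRB10 at 1.34, OGT at 1.10, CDT1 at 0.96, FCGR1A at 0.83, SLC29A1 at 0.79, MYC at 0.74, H2AC6 at 0.72, POLD1 at 0.68 and RBBP8 at 0.64.

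Among myeloid and immune genes with a lower response in MOLM-13 the differences were -2.51 for GBP5, -2.30 for S100A8, -1.92 for CCR2, -1.87 for CSF1R, -1.77 for S100A9, -1.37 for PLAUR and -1.21 for SRGN. They were -0.96 for NFE2, -0.89 for CD83, -0.83 for VSIR, -0.82 for FCGR2A and -0.66 for ID2. Among cholesterol genes and ACAT2 they were -1.50 for MSMO1, -1.05 for HMGCS1, -0.91 for INSIG1, -0.86 for ACAT2 and -0.77 for CYP51A1.

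Among genes of growth, death and metabolism with a lower response in MOLM-13 they were -1.38 for PHLDA1, -1.15 for PIM1, -1.07 for BNIP3L, -1.05 for BTG2, -0.71 for KIF20A, -0.67 for MDM2, -0.63 for CCND3, -0.58 for IDH1 and -0.44 for PGAM1. The remaining genes with a lower response in MOLM-13 were H19 at -5.96, SEMA6A at -2.33, CCNA1 at -2.23, CHRNA6 at -2.19, TGM5 at -1.73, FLVCR2 at -1.60, NANOS1 at -1.60 and CHST2 at -1.55. H19, SEMA6A and MAP1B stayed under 2 in every MOLM-13 library, so their differences rest on the change in MOLM-14. H19 and SEMA6A showed no rise in MOLM-13, and a fall of MAP1B could not have been measured there.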

How the results depend on the processing

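Of the 84 named genes with a called response difference, 26 were called in every other setting in which they were fitted and 0 turned direction. The unchanged direction lends no support, since the genes were picked by their call in the same libraries. Counts of called genes moved widely, and the cause was not tested. Library quality weights gave 512 genes higher and 631 lower in MOLM-13 for the difference, and 2809 up and 2688 down in MOLM-13. Leaving out both replicate 2 libraries of MOLM-14 gave 473, 532, 1500 and 1548 in the same order. With no filter on low values, where 38145 genes were tested, these were 76, 50, 189 and 181. The genes of lower difference numbered 201 in the fit over 30 libraries and 216 among genes with a mean value of at least 100. The genes that fell in MOLM-13 numbered 118 after quantile normalisation, 198 after scaling without mitochondrial genes and 221 after trimmed-mean scaling. Fits within each line alone gave 2504 up and 2322 down in MOLM-13, and 151 up and 150 down in MOLM-14. Leaving out each library in turn gave 55 to 196 genes of higher and 23 to 211 of lower difference, 78 to 601 up and 52 to 751 down in MOLM-13, and 876 to 1203 up and 742 to 1033 down in MOLM-14. The difference between the lines in the rise of the mitochondrial share stayed between 2.47 and 3.27 percentage points. With the replicate number as a block, 88 genes had a higher and 66 a lower difference, of which 71 and 52 were also called without the block. Among the named genes that lost their call with the block were GBP5 (adjusted p = 0.0758 by limma), SLC6A9 (0.0687), CSF1R (0.0511), OGT (0.0595) and ACAT2 (0.0626). Deviations of same-numbered libraries had r between -0.06 and -0.02 in MOLM-13 and between 0.07 and 0.32 in MOLM-14, and each replicate correlated best with its own number in MOLM-14 and in no case in MOLM-13, a hint from the data and not from the design. Depth limits the low genes of the shallow MOLM-14 libraries, where 1 read was worth 10.3 and 10.1 units.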
